A study of Mus musculus with 39 samples.

Results

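The BCL6 peaks with the highest scores in mouse interscapular brown fat lay at 371 sites. These sites are all the peaks with a Peak Score of at least 10 in a deposited list of 3022 BCL6 peaks, whatever their annotation. They were chosen by that score alone, which the peak caller assigned on a scale that none of the sources states, so scores are given only as a description. The 371 sites have 347 different nearest genes among the 2529 nearest genes of the whole list. Of these 347 genes, 339 had a row in the RNA table, and 8 did not. The RNA tests covered 236 of them, with a mean of at least 10 normalised counts over all libraries. The other 103 lay below that mean, 31 of them at 0 in every library. A nearest gene is a neighbour on the chromosome, and nothing here shows that the peak acts on it. The choice also depends on the annotation: with the starts of the RefSeq table, which includes predicted genes, 200 of the 371 peaks had the same nearest gene as in the authors' annotation, which is used throughout.

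The binding sites come from 1 chromatin immunoprecipitation sample with no replicate, from brown fat of male Cre-negative mice housed at 30 °C. RNA of the same tissue was sequenced in 16 libraries, 4 in each of 4 groups: Cre-negative and UCP1Cre-positive mice, each housed at a constant 22 °C or 30 °C. All mice were males on a C57BL/6J background with a floxed Bcl6 gene, so the controls carry the floxed allele too. In UCP1Cre mice the recombinase is driven by the Ucp1 promoter, which is active in brown adipocytes. The deletion is thus aimed at these cells and not at immune, vascular or progenitor cells of the tissue. Where it took place was not tested here. No age is given, and nothing in the labels ties each library to its own animal, so p-values measure only the spread between libraries, which may be technical. Libraries are called control (Cre-negative) and Cre-labelled (UCP1Cre-positive) below.

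BCL6 is a transcriptional repressor with a BTB domain that recruits the corepressors NCOR, SMRT and BCOR and their histone deacetylases, and with zinc fingers that read DNA. Its preferred sequence is an inverted repeat much like the sites of STAT factors, and BCL6 and STAT5 are known to meet at the same sites in other cells with opposite effects. BCL6 is best known from germinal centre B cells and follicular helper T cells, and in liver and fat it has been linked to lipid metabolism. Brown fat burns fatty acids to make heat, and the drive to do so falls as housing gets warmer.

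The DNA under some of the strong promoter peaks holds that repeat. The RefSeq promoter table used here (assembly GRCm38.p6, the mm10 build of the peaks) gives 300 bases per gene, from 250 before to 50 after its start. Strong peaks overlapped 29 of these windows, from 26 peaks. The pattern TTCNNNGAA, which reads the same on both strands, lay inside the peak in 9 windows, which belong to 8 peaks, since the Igfals and Gm41549 windows share one stretch of DNA. For 7 of the 8 peaks, the part that lies in its window is shown 5′ to 3′ on the strand of the named gene, with TTCNNNGAA in capitals. For Cish it is cut to the stretch with the pattern, and for Igfals it ends at the gene's start. In the other 18 peaks, among them those of Tchp (30.0) and Shb (25.7), the part that lies in a window did not hold the pattern. The highest promoter peak, at Socs2, has no matching window, and its sequence was not used here.
Cish, chr9:107296659-107296678, plus strand: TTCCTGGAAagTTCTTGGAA
Rrn3, chr16:13780481-13780661, plus strand: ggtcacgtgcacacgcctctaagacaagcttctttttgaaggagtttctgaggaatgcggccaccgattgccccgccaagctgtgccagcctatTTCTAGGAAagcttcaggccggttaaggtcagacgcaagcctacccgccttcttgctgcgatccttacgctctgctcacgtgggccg
Igfals, chr17:24878082-24878230, plus strand: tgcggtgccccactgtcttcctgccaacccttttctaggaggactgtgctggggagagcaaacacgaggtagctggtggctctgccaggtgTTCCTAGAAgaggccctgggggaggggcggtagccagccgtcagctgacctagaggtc
Scfd2, chr5:74531793-74531973, minus strand: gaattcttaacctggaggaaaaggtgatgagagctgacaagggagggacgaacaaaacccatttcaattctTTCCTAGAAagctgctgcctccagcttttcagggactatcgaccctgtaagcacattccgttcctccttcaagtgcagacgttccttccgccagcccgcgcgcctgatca
Gbp7, chr3:142530137-142530317, plus strand: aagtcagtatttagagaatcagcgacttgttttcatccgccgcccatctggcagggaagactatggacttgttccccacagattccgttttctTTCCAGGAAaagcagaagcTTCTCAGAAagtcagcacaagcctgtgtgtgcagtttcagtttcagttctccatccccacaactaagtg
Trmt11, chr10:30600737-30600917, minus strand: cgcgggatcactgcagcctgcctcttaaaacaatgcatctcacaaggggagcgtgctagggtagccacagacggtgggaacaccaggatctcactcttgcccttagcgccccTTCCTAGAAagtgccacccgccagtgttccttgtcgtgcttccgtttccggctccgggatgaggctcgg
B930025P03Rik, chr8:10882519-10882699, minus strand: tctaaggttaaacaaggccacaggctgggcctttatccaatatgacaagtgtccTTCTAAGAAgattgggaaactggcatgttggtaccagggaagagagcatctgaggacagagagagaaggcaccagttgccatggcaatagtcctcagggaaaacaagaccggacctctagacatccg

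Cish and Gbp7 held 2 copies of the pattern in the stretch shown, 11 bases apart from first base to first base at Cish. In all 8 peaks the centre of the pattern lay within 32 bases of the centre of the peak. Of the 10 windows that contain a whole peak, 8 had the pattern inside the peak, among them Igfals and Gm41549, which share a peak. The exact BCL6 consensus TTCCTAGAA, read on either strand, occurred in 4 of the 8 peaks: as written at Igfals, Scfd2 and Trmt11, and on the opposite strand at Rrn3.

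Across the 29 windows, 11 (37.9%) held TTCNNNGAA anywhere in their 300 bases, against 39 of 351 windows (11.1%) that only a weaker peak overlapped and 2722 of 32817 windows in all (8.29%). With at least 100 bases of overlap the share was 9 of 18 (50.0%). The stricter TTCCTNGAA and TTCCTAGAA, both contained in the first pattern and read on both strands, occurred in 24.1% and 17.2% of the 29 windows, against 1.59% and 0.411% of all windows. Of 11 patterns of other factors, searched on both strands, 5 were more frequent in the 29 windows than in all windows. They were the GC box GGGCGG (75.9% against 35.6%), the nuclear receptor motif AGGTCA (20.7% against 16.3%), the ETS motif CCGGAAG (13.8% against 8.86%), the E-box CACGTG (10.3% against 7.15%) and the EBF motif (6.90%, which is 2 windows, against 0.905%). The other 6 were less frequent. The CCAAT box CCAAT was in 31.0% against 37.4%, and the AP-1 motif TGANTCA in 3.45% against 7.81%. The last 4 were in 0 of the 29 windows. They were the CRE TGACGTCA (1.79% of all windows), the NRF1 motif (0.966%), the ERR motif TCAAGGTCA (0.424%), which contains AGGTCA, and the NFI pair (0.037%). Motifs this rare can be missing from 29 windows without being scarcer there. Under weaker peaks the GC box was in 61.5%, AGGTCA in 12.3% and the ETS motif in 27.4% of windows. The G and C content of the windows was 59.6% under strong peaks, 60.2% under weaker ones and 53.8% over all. A match describes the letters and not a site in use, and windows of neighbouring genes can share DNA.

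Strong peaks were mostly far from gene starts. By the authors' annotation 183 of 371 (49.3%) lay in introns, 133 (35.8%) between genes and 39 (10.5%) at promoters, with 5 at transcription ends, 5 in exons, 3 in 5′ UTRs, 2 in non-coding exons and 1 in a 3′ UTR. Among the 2651 weaker peaks, introns held 40.7%, intergenic sites 34.9% and promoters 16.8%. The centre of 52 strong peaks (14.0%) lay within 1 kb of the nearest start, against 26.4% of weaker peaks, and the median distance was 22579 bases against 14498 bases. Strong peaks also had a higher deposited fraction for peak shape, with a median of 0.833 against 0.721 among weaker peaks. This fraction comes from the same sample as the score. It is not a width, since every listed peak has the same width.

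Scores ran from 10 to 170 with a median of 15, and 110 peaks scored at least 20, 44 at least 30 and 18 at least 50. The 20 peaks just inside the threshold (10 to 10.4) had a median shape fraction of 0.7925 and included 4 promoter peaks. The 30 peaks just outside it (9.65 to 9.83) had 0.776 and included 2. The threshold therefore cuts a continuous range.

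**Figure D1:**
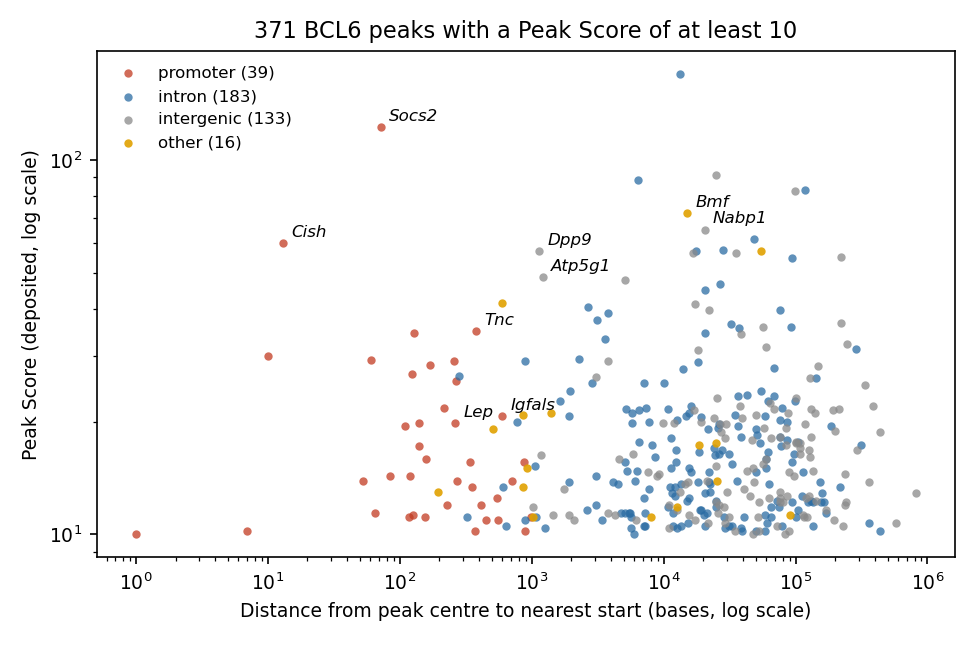
Peak Score (log scale) of the 371 strong BCL6 peaks against the distance in bases from the peak centre to the nearest start (log scale), 1 point per peak, coloured by annotation class. The peaks at Socs2 (122.6) and Cish (59.9) are the only promoter peaks above a score of 50, while most points lie beyond 1 kb.

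The highest score, 170, belonged to a site in the last intron (intron 4 of 4) of Ntpcr, a nucleoside triphosphatase gene, at chr8:125747530-125747710. The next, 122.6, lay 72 bases before the start of Socs2, a suppressor of cytokine signalling, at chr10:95416839-95417019. Peaks nearest Bmf (72.0), a pro-apoptotic member of the BCL2 family, Nabp1 (65.2), a single-stranded DNA binding protein, and Cish (59.9), a feedback inhibitor of STAT5 signalling, were also among the 10 highest.

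For 23 genes there were 2 or more strong peaks. Hdac4, the histone deacetylase gene, had 3, in its introns 2, 3 and 4, with scores of 23.6, 12.3 and 13.8. Dpp9, a dipeptidyl peptidase, had 2 (57.2 and 41.5) on either side of its start. Atp5g1, which encodes subunit c of ATP synthase, had 2 of nearly equal score, 48.6 at chr11:96076816-96076996 and 47.9 at chr11:96070429-96070609. Akt1, the insulin-signalling kinase, had 2 in its intron 2 (37.5 and 21.5).

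The RNA libraries held all 12 of the listed defining markers of brown adipocytes, with sums of 207298 to 386710 normalised counts at 22 °C and 120202 to 149427 at 30 °C. The 13 adipocyte progenitor markers went the other way, with 8828 to 12589 at 22 °C and 17425 to 21242 at 30 °C. The deposited values summed to 8867615 to 13516936 per library, and raw depth is unknown. Genes above 0 numbered 14311 to 16849, and were fewest in control library 1 and Cre-labelled library 2 at 22 °C. Other cell types moved with the groups. The summed 22 macrophage markers were 4451 to 5722 in controls and 7632 to 24484 in Cre-labelled libraries at 30 °C, and 1556 to 2580 and 2653 to 3768 at 22 °C. The 13 lymphocyte markers measured were 381 to 529 and 640 to 914 at 30 °C and overlapped at 22 °C (140 to 317 and 285 to 423). The 13 endothelial markers were 26530 to 31853 and 32084 to 39127 at 30 °C and overlapped at 22 °C (16836 to 26397 and 20600 to 36029), and the 21 skeletal muscle markers varied within groups from 1216 to 43682. No marker of these lists or of the brown adipocyte list was nearest to a strong peak, and the part these cells play in the results below was not tested. In whole tissue, fewer cells of a type and less RNA per cell cannot be told apart.

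Bcl6 itself, the floxed gene, stood higher in Cre-labelled fat. At 30 °C it measured 3269 to 5159 in Cre-labelled and 1020 to 2340 in control libraries (4466 ± 853 against 1847 ± 608, SD, n = 4 each), and the groups did not overlap. The log2 difference was 1.32 ± 0.28 (SE; limma adjusted p = 0.00438; two-sided exact permutation p = 0.0286, the smallest that 4 against 4 allows). At 22 °C it measured 2671 to 3927 against 764 to 1838, a log2 difference of 1.70 ± 0.28 (limma adjusted p = 0.000825). The direction goes against a plain loss of the transcript, the sources do not say which part is deleted, and the value covers the whole gene, so it does not check the labels. All directions below are those of the library labels. Bcl6 was the nearest gene of none of the 3022 peaks.

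Genes next to strong BCL6 peaks stood higher in Cre-labelled fat far more often than lower, at both temperatures. At 30 °C, 58 of the 236 tested members passed the limma threshold (adjusted p below 0.05 over 13176 genes) as higher (24.6%) and 10 as lower (4.24%). Over all genes tested the shares were 5.65% and 6.85% (12.5% in either direction). At 22 °C, 59 members were higher and 3 lower (1.27%), against 5.51% and 4.69% of all genes (10.2% in either direction). The median log2 difference of the tested members was 0.25 at 30 °C and 0.26 at 22 °C, against 0.01 and 0.00 over all genes. Differences are on the scale log2(normalised count + 1), which understates the change of low genes. These counts describe the 236 genes that passed the filter on low values, and some of them passed it only through the group in which they are high. With a mean of at least 10 required in both groups, 55 of 229 were higher and 10 lower at 30 °C, and 56 of 228 higher and 3 lower at 22 °C. With nearest genes taken from RefSeq starts, 168 were tested, of which 43 were higher and 5 lower at 30 °C and 45 higher and 2 lower at 22 °C.

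The count of the few lower calls depended on single libraries. At 30 °C their count was 4 without Cre-labelled library 1, 5 without control library 4 and 6 without control library 2 or Cre-labelled library 3. At 22 °C it was 0 without control library 3 or Cre-labelled library 3, 1 without Cre-labelled library 1 or 4, 8 without Cre-labelled library 2, and 12 without the pair of libraries with the fewest genes above 0. The lower calls of Smtnl2, Thrb, Tchp and Farp1 at 30 °C held in every fit that left out 1 library. The counts of higher members stayed between 46 and 69 at 30 °C and between 50 and 73 at 22 °C when any 1 library was left out.

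The share of higher genes was larger where the peak's score was higher; the differences between score classes were not tested. Among genes whose strongest peak scored at least 20, 25 of 71 (35.2%) were higher at 30 °C. The share was 26.4% for scores from 15 to below 20 and 17.0% from 10 to below 15. At 22 °C the shares were 32.4%, 28.3% and 18.8%. For scores of at least 30, 10 of 30 genes (33.3%) were higher at 30 °C and 11 of 30 (36.7%) at 22 °C. At 30 °C the share thus did not rise further at the top scores. Genes with only weaker peaks were higher in 6.06% and lower in 7.95% of 1635 cases at 30 °C, near the values of 5.20% and 6.74% for the 11305 genes next to no peak. At 22 °C they were higher in 6.18% and lower in 5.14%.

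Over distance the share was less even. At 30 °C 22.7% of members with a start within 1 kb were higher, 38.6% from 1 to 10 kb, 22.9% from 10 to 100 kb and 13.3% beyond 100 kb. At 22 °C the shares were 36.4%, 34.1%, 21.2% and 10.0%. The bins hold 44, 44, 118 and 30 genes, and the differences between bins were not tested. Among the 18 tested genes with 2 or more strong peaks, 10 were higher at 30 °C, and 9 were higher and 1 lower at 22 °C. Of genes whose only peaks were weaker and lay within 1 kb of the start, 4.60% were higher and 6.98% lower at 30 °C.

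**Figure D2:**
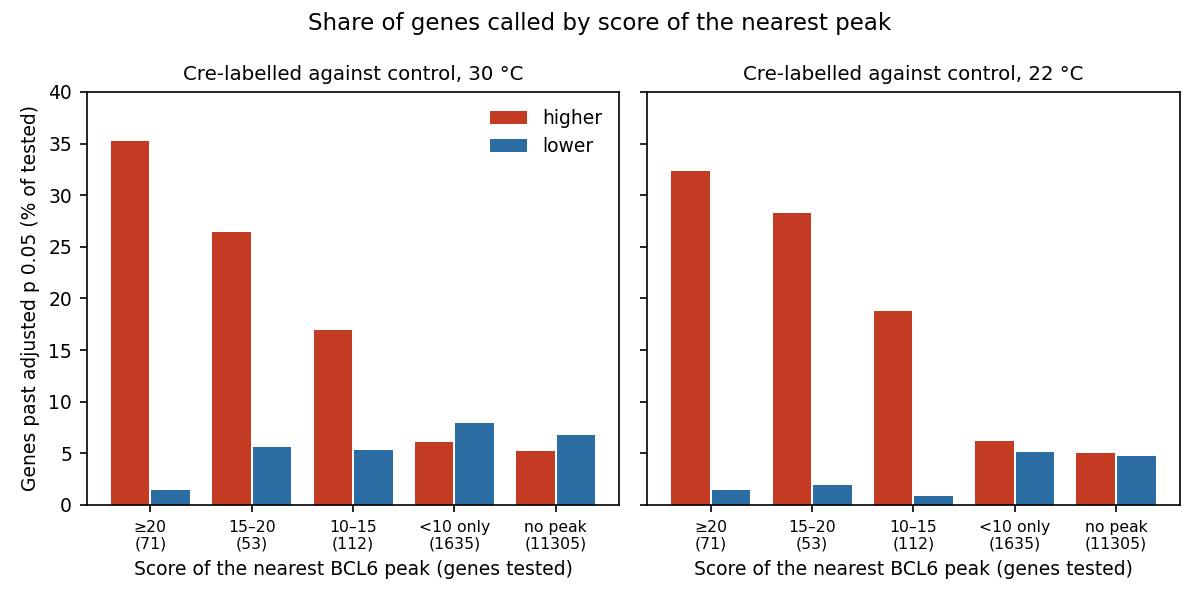
Percent of tested genes past the limma threshold of 0.05, higher (red) or lower (blue) in Cre-labelled than in control libraries, by score of the gene's strongest nearest peak, at 30 °C (left) and 22 °C (right), with the number of genes tested in parentheses. The share of higher genes falls from 35.2% to 17.0% over the 3 score classes at 30 °C and from 32.4% to 18.8% at 22 °C, and is 5.20% and 5.01% for genes next to no peak.

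The calls at the 2 temperatures compare different libraries, but all 16 libraries share the same estimate of the spread, so the calls are not independent. Of the 236 genes, 43 were higher at both temperatures, 15 passed as higher at 30 °C alone, 15 at 22 °C alone, and 150 passed in neither comparison. A further 9 passed as lower at 30 °C alone and 3 at 22 °C alone, and Shmt1 was lower at 30 °C and higher at 22 °C. Values of 85 members did not overlap between the groups at 30 °C (71 above and 14 below; 22.9% of all genes tested did not overlap) and of 65 at 22 °C (59 above and 6 below; 12.4%).

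**Figure D3:**
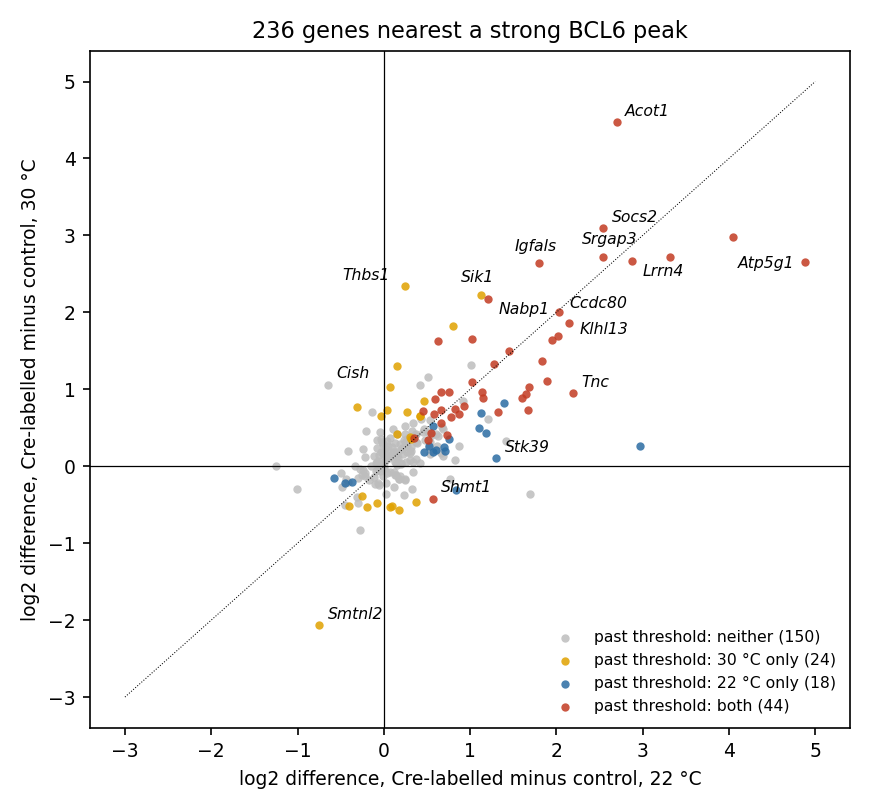
Log2 difference between Cre-labelled and control libraries at 30 °C against the same at 22 °C for the 236 tested genes nearest strong BCL6 peaks, 1 point per gene, coloured by which comparison passed the limma threshold, with a dotted line of equality. The 43 genes higher at both temperatures spread along the line, with Atp5g1 (2.65 at 30 °C, 4.88 at 22 °C) far to its right and Acot1 (4.47, 2.70) above it.

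Socs2 and Cish, which act in cytokine feedback, held the highest promoter peaks by the authors' annotation. Socs2, which dampens growth hormone and STAT5 signalling, at 30 °C read 71.4, 82.0, 94.1 and 81.5 in controls and 734, 647, 692 and 761 with the Cre. The values at 22 °C were 161, 198, 405 and 144 in controls and 1042, 1624, 922 and 1405 in Cre-labelled libraries. Every Cre-labelled library lay above every control at the same temperature, and the 30 °C controls were the lowest group. The difference passed the test at 30 °C (log2 difference 3.10 ± 0.25 SE, limma adjusted p = 6.67e-07) and at 22 °C (log2 difference 2.55 ± 0.25 SE, limma adjusted p = 5.32e-06).

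Cish, a sister gene with its own promoter peak and the pair of patterns shown above, behaved otherwise. It read 334, 449, 170.1 and 1806 in controls and 1105, 897, 984 and 899 in Cre-labelled libraries at 30 °C. At 22 °C it read 2897, 2258, 5177 and 501 in controls and 1803, 1616, 1020 and 942 in Cre-labelled libraries. Control values spread widely and the groups overlapped at both temperatures, so no difference passed (log2 difference 1.06 ± 0.63 SE, limma adjusted p = 0.311 at 30 °C, and log2 difference -0.65 ± 0.63 SE, limma adjusted p = 0.558 at 22 °C). The remaining members on the list of cytokine signalling genes, Il6ra, a receptor of interleukin 6, and Socs5, a further suppressor, did not pass in either Cre comparison (log2 differences of 0.52 and 0.17 at 30 °C). Over that list of 30 genes, 29 were tested, of which 2 were higher and 1 lower at 30 °C and 2 were higher at 22 °C.

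Igfals encodes the acid-labile subunit that holds insulin-like growth factors in the circulation. Its peak, at chr17:24878082-24878262, is one of the 4 with TTCCTAGAA. It read 49.9, 74.1, 33.0 and 64.8 in controls and 287, 381, 399 and 288 in Cre-labelled libraries at 30 °C. The groups were well apart (log2 difference 2.64 ± 0.21 SE, limma adjusted p = 4.71e-07). At 22 °C it read 215, 182, 239 and 206 and 694, 653, 683 and 930.1, again without overlap (log2 difference 1.80 ± 0.21 SE, limma adjusted p = 2.95e-05). Akt1, the kinase downstream of the insulin and IGF receptors and the member on the insulin list, was higher at 22 °C by 0.51 ± 0.11 with no overlap (2085 to 2238 against 2775 to 3447). At 30 °C its difference of 0.35 had an adjusted p of 0.0433, which became 0.0512 to 0.135 in 12 of the 16 fits that left out 1 library. Of the 35 tested genes on that list, 5 were higher and 3 lower at 30 °C, and 5 higher and 2 lower at 22 °C.

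Atp5g1 had the largest difference of any named member at 22 °C. It read 160.3, 70.8, 86.2 and 62.8 in controls and 3177, 3765, 1677 and 2408 in Cre-labelled libraries, 29.0-fold higher in mean (log2 difference 4.88 ± 0.26 SE, limma adjusted p = 1.62e-08). At 30 °C it read 134, 144, 148 and 117 and 695, 945, 1070 and 766, 6.40-fold higher (log2 difference 2.65 ± 0.26 SE, limma adjusted p = 6.16e-06). No control reached 200 and no Cre-labelled library fell below 694. The gap between the 2 temperatures was itself past the threshold (interaction log2 difference -2.23 ± 0.37, limma adjusted p = 0.0114). Subunit c is encoded by several genes with the same mature protein and has processed pseudogenes, so how reads were divided among them is uncertain.

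Acot1, a cytosolic acyl-CoA thioesterase that frees fatty acids from coenzyme A, had the largest difference at 30 °C. It read 7.57, 25.1, 2.49 and 1.08 in controls and 98.3, 161, 243 and 99.4 in Cre-labelled libraries (log2 difference 4.47 ± 0.59 SE, limma adjusted p = 0.000103). At 22 °C the libraries read 297, 461, 328 and 113 and 1506, 2329, 1575 and 1657 (log2 difference 2.70 ± 0.59 SE, limma adjusted p = 0.00746). Neither pair of groups overlapped, and all Cre-labelled libraries at 30 °C lay below 3 of the 4 controls at 22 °C. Acot1 has close paralogs in a cluster, so its reads may be shared with them. Acaa1a, a peroxisomal thiolase and the other member on the fatty acid oxidation list, did not pass at either temperature (0.07 and -0.07). Over the 35 genes of that list the call was mostly the other way, with 5 higher and 16 lower at 30 °C and 4 higher and 14 lower at 22 °C.

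On the list of genes known to be repressed by BCL6 in other cells, 3 of 38 were members, namely Socs2, Acot1 and Cish. Of the 33 tested, 7 were higher and 1 lower at 30 °C, and 8 higher and 2 lower at 22 °C. That list draws on knowledge of BCL6 and is not independent of the choice of this factor.

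**Figure D4:**
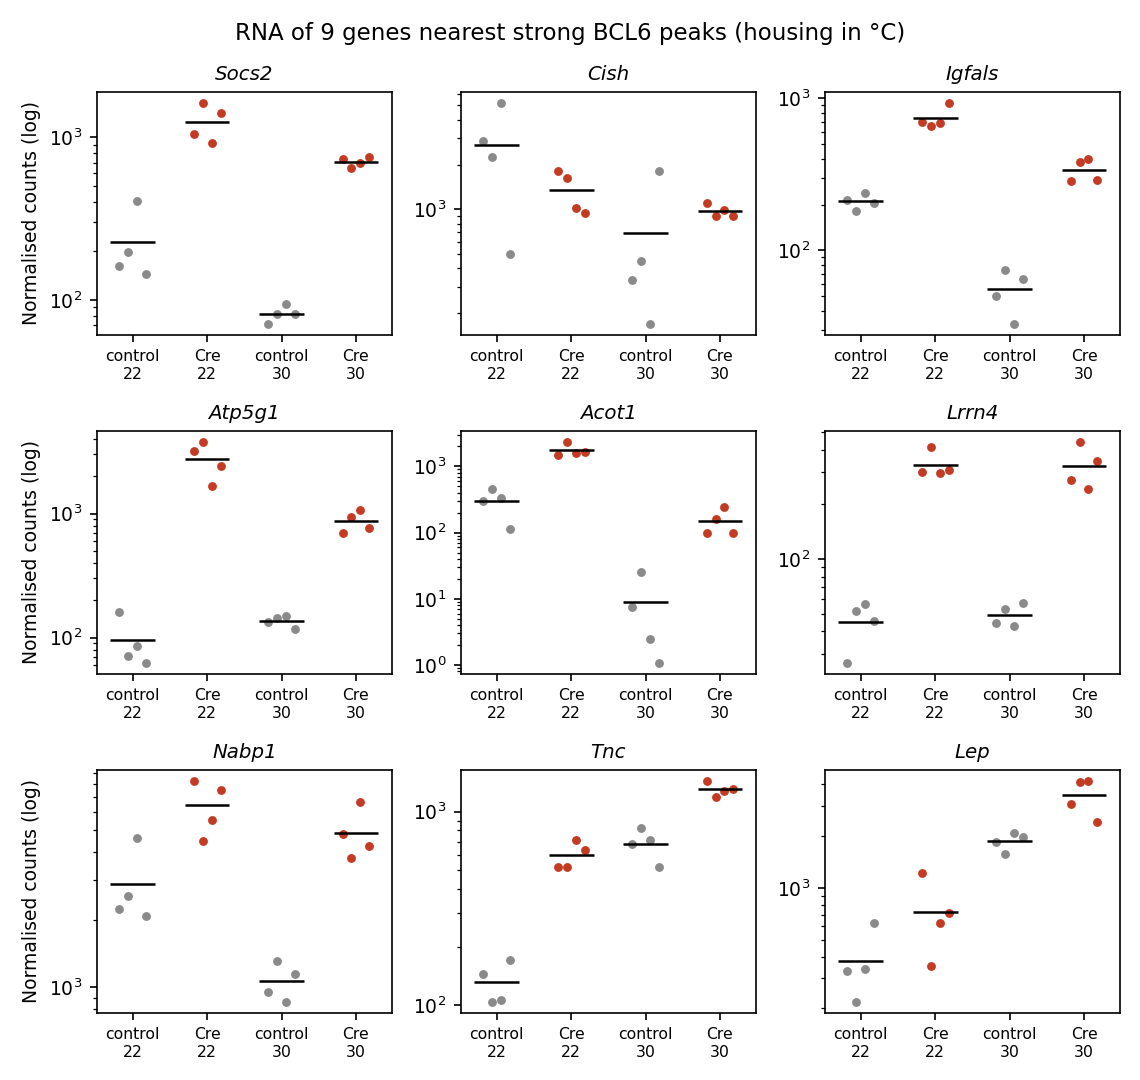
Normalised counts (log scale) of 9 genes nearest strong BCL6 peaks in each of the 16 libraries, with points for libraries, black bars for group means, grey for control and red for Cre-labelled, and housing at 22 or 30 °C. Socs2, Igfals, Atp5g1, Acot1, Lrrn4 and Tnc show no overlap between control and Cre-labelled libraries at either temperature, while Cish overlaps at both.

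Ntpcr, the gene of the highest peak, read 59.3 to 97.8 in controls and 179 to 371 in Cre-labelled libraries at 22 °C (log2 difference 1.68 ± 0.21 SE, limma adjusted p = 8.87e-05). At 30 °C it read 76.7, 85.3, 117 and 103 and 139, 174, 186 and 136 (log2 difference 0.74 ± 0.21 SE, limma adjusted p = 0.0316). Groups did not overlap at either temperature, but at 30 °C the adjusted p became 0.0567 to 0.0999 without control library 1, 2 or 4 or Cre-labelled library 2 or 3. Nabp1 read 951, 1314, 862 and 1141 and 4807, 3752, 6648 and 4226 at 30 °C (log2 difference 2.17 ± 0.25 SE, limma adjusted p = 2.7e-05). At 22 °C its groups, 2070 to 4623 in controls and 4480 to 8255 in Cre-labelled libraries, overlapped, since 1 control lay above the lowest Cre-labelled library (log2 difference 1.20 ± 0.25 SE, limma adjusted p = 0.0053). Ptpn4, a tyrosine phosphatase gene with a peak of 56.5, was higher by 0.97 and 0.75 at 30 and 22 °C.

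Bmf, whose product binds and blocks BCL2-type survival proteins, read 94.7, 109, 95.8 and 51.6 in controls and 478, 225, 387 and 239.8 in Cre-labelled libraries at 22 °C (log2 difference 1.89 ± 0.28 SE, limma adjusted p = 0.000419). At 30 °C it read 113, 97.1, 153 and 153 and 293, 412, 240.1 and 196 (log2 difference 1.11 ± 0.28 SE, limma adjusted p = 0.0162; adjusted p = 0.0507 without control library 2). Its Cre-labelled libraries all lay above the controls. Bcl2l11, which encodes the related protein BIM, Bnip3, a mitophagy factor, and Apaf1, the core of the apoptosome, are the other members on the apoptosis list. Bcl2l11 and Bnip3 passed in neither Cre comparison, with log2 differences of -0.07 and -0.16 at 30 °C. Apaf1 was higher at 22 °C by 0.47 with an adjusted p of 0.047, and 14 of the 16 fits that left out 1 library gave 0.0523 to 0.151. Of the 35 genes tested on that list, 5 were higher and 1 lower at 30 °C, and 6 higher and 1 lower at 22 °C.

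Lrrn4, a membrane protein with leucine-rich repeats and a peak in intron 2 of 4, read 44.6, 53.3, 42.6 and 57.2 in controls and 271, 440.0, 244 and 346 in Cre-labelled libraries at 30 °C (log2 difference 2.67 ± 0.22 SE, limma adjusted p = 9.85e-07). At 22 °C it read 26.9, 51.9, 56.8 and 45.4 and 302, 415, 297 and 308 (log2 difference 2.88 ± 0.22 SE, limma adjusted p = 7e-07). The 2 control groups lay at one level and the 2 Cre-labelled groups at another. Tnc, the matrix protein tenascin C, with a promoter peak of 34.9, read 145, 104, 106 and 169.9 and 516, 516, 714 and 632 at 22 °C (log2 difference 2.19 ± 0.17 SE, limma adjusted p = 7e-07). At 30 °C it read 681, 819, 716 and 520.0 and 1441, 1193, 1277 and 1314 (log2 difference 0.95 ± 0.17 SE, limma adjusted p = 0.00137). The order of the groups was control at 22 °C, then Cre-labelled at 22 °C and control at 30 °C with overlapping values, then Cre-labelled at 30 °C.

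Ccdc80, a secreted matrix protein of white fat with 2 peaks in its intron 2, read 814 to 1257 in controls and 3211 to 4485 in Cre-labelled libraries at 30 °C (log2 difference 2.00 ± 0.22 SE, limma adjusted p = 2.15e-05). At 22 °C the ranges were 413 to 827 and 1885 to 3068, with a log2 difference of 2.03. Lep, which encodes the white fat hormone leptin and has a promoter peak of 19.8, read 1856, 1577, 2079 and 1991 in controls and 3058, 4153, 4179 and 2429 in Cre-labelled libraries at 30 °C. The groups did not overlap, yet the difference missed the threshold (log2 difference 0.85 ± 0.32 SE, limma adjusted p = 0.0941), and at 22 °C the groups overlapped (log2 difference 0.92 ± 0.32 SE, limma adjusted p = 0.0793). Of the 20 tested genes on the white fat list, 4 were higher and 1 lower at 30 °C and 5 higher and 1 lower at 22 °C.

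Other members with wide gaps have roles in signalling and turnover. Srgap3, a GTPase-activating protein, read 12.4 to 34.6 in controls and 108 to 155 in Cre-labelled libraries at 30 °C, and was higher by 2.72 and 2.54 at 30 and 22 °C. Klhl13, an adaptor of a ubiquitin ligase 129939 bases from its peak, read 28.2 to 38.7 in controls and 126 to 159 in Cre-labelled libraries at 22 °C, and was higher by 1.86 and 2.15. Sik1, a kinase induced by cAMP, read 261, 536, 555 and 605 in controls and 1949, 1489, 5189 and 1520 in Cre-labelled libraries at 30 °C (log2 difference 2.23 ± 0.40 SE, limma adjusted p = 0.00149). Its groups overlapped at 22 °C (1.13, adjusted p = 0.0822). Dpp9 was higher by 0.68 and 0.88, with no overlap at either temperature.

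A few members that rose are genes of immune cells. They were singled out after their values were seen and do not stand for all members with immune roles. Il6ra passed in neither Cre comparison, and others, such as Il7r and Cd180, are not described here. Tlr8, a receptor of endosomal RNA, was higher by 1.64 ± 0.31 at 30 °C and 1.95 ± 0.31 at 22 °C, and Cxcl9, a chemokine, by 1.03 ± 0.14 and 1.68 ± 0.14. Mertk, a receptor for the uptake of dead cells, was higher at 30 °C by 0.85 (limma adjusted p = 0.00354) and did not pass the threshold at 22 °C. These moved beside the macrophage marker sums given above, whose part in them was not tested. Of the 22 macrophage markers themselves, 17 were higher at 30 °C, and 9 were higher and 1 lower at 22 °C.

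Among members with a role in transcription, Hdac4 read 129.5, 208, 184 and 200.1 in controls and 263, 343, 251 and 276 in Cre-labelled libraries at 22 °C, and 221, 194, 248 and 218 and 276, 373, 348 and 312 at 30 °C. Again all Cre-labelled libraries lay above the controls (0.66 ± 0.15 and 0.56 ± 0.15; limma adjusted p = 0.0114 and 0.0223). Without control library 1, 2 or 4 or Cre-labelled library 2 or 3 the adjusted p at 30 °C was 0.0508 to 0.0644. Nr3c2, the mineralocorticoid receptor, and Nr2f2, an orphan nuclear receptor, passed in neither Cre comparison, with log2 differences of 0.22 and 0.17 at 30 °C. Ier5, an immediate early gene, was higher at 30 °C (137 to 251 in controls and 335 to 489.6 in Cre-labelled libraries, log2 difference 1.03 ± 0.20 SE, limma adjusted p = 0.00326) and not past the threshold at 22 °C (0.07). Zfp36l2, an mRNA decay factor, passed in neither (-0.00 and -1.25). Both are on the list of immediate early and stress transcription factors, most of which are not nearest to a strong peak. Of the 32 genes tested on that list, 12 were higher and 0 lower at 30 °C, and 0 higher and 2 lower at 22 °C.

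The 10 members that were lower at 30 °C did not overlap between groups, and 9 of them fell by 0.39 to 0.57 on the log2 scale. The exception was Smtnl2, a relative of the smooth muscle protein smoothelin, which read 257, 226, 155 and 145 in controls and 24.4, 82.4, 64.0 and 30.4 in Cre-labelled libraries (log2 difference -2.07 ± 0.45 SE, limma adjusted p = 0.00565). At 22 °C its groups overlapped (-0.75, adjusted p = 0.311). Thrb, the thyroid hormone receptor beta, which mediates part of the thyroid hormone response of brown fat, read 573, 514, 478 and 524 and 347, 348, 354 and 395 at 30 °C (log2 difference -0.53 ± 0.11 SE, limma adjusted p = 0.00535). Tchp, a keratin-binding centrosomal protein with a promoter peak of 30.0, read 147 to 192 in controls and 101 to 126 in Cre-labelled libraries at 30 °C (log2 difference -0.57 ± 0.13 SE, limma adjusted p = 0.00815). Prkag2, a regulatory subunit of AMP-activated kinase, and Angpt1, a vessel growth factor, fell by 0.53 and 0.47, with adjusted p of 0.0357 and 0.0439. In fits that left out 1 library of the 30 °C groups, these rose as high as 0.122 for Prkag2 (without Cre-labelled library 3) and 0.165 for Angpt1 (without control library 4).

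A promoter peak with the sequence pattern did not fix the RNA result. Of the 7 genes whose promoter sequences are shown, Igfals was higher in both Cre comparisons and Gbp7, an interferon-induced GTPase, at 22 °C alone (log2 difference 1.13 ± 0.26 SE, limma adjusted p = 0.0101, groups overlapping). Cish, Rrn3, an initiation factor of RNA polymerase I (0.15 and -0.06 at 30 and 22 °C), and Scfd2 (-0.12 and 0.13) passed in neither. Trmt11, a tRNA methyltransferase, read 101 to 144 in controls and 89.7 to 95.3 in Cre-labelled libraries at 30 °C, without overlap, and missed the threshold (log2 difference -0.41 ± 0.14 SE, limma adjusted p = 0.0583). B930025P03Rik was below the filter on low values. In the fit without that filter it was higher at 30 °C, on low counts (log2 difference 3.00 ± 0.61 SE, limma adjusted p = 0.00546), and did not pass at 22 °C.

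Housing temperature moved the members about as often as it moved other genes. The brown adipocyte and progenitor marker sums given above moved with temperature too, and their part in these counts was not tested. In controls, 67 of the 236 tested members were higher at 30 °C than at 22 °C and 52 lower, together 50.4% against 45.5% of all genes tested. In Cre-labelled libraries 43 were higher and 37 lower, 33.9% against 32.7%. Groups did not overlap for 106 members in controls (41.2% of all genes) and 72 in Cre-labelled libraries (34.5%). These comparisons use the same libraries as those by Cre label, so agreement between the 2 kinds of comparison is not a result. In controls Lep rose most among the named members (219 to 630.0 at 22 °C and 1577 to 2079 at 30 °C, log2 difference 2.40 ± 0.32 SE, limma adjusted p = 2.88e-05), followed by Tnc (2.39 ± 0.17). Acot1 (-5.40 ± 0.59), Negr1, an adhesion protein (-2.23 ± 0.17), Igfals (-1.96 ± 0.21) and Shb, an adaptor of receptor kinases (-1.88 ± 0.23), were lower at 30 °C.

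In Cre-labelled libraries Acot1 (-3.63 ± 0.59), Shb (-1.86 ± 0.23), Atp5g1 (-1.62 ± 0.26) and Pcx, pyruvate carboxylase (-1.26 ± 0.16), were lower at 30 °C. Thbs1, the matrix protein thrombospondin 1, read 91.8, 74.6, 73.2 and 120.4 at 22 °C and 582, 555, 1530 and 1521 at 30 °C in Cre-labelled libraries (log2 difference 3.39 ± 0.52 SE, limma adjusted p = 0.000153), and Tfrc, the transferrin receptor, rose by 2.05 ± 0.35. Thbs1 was also higher by Cre label at 30 °C (2.34, adjusted p = 0.00655) with overlapping groups, because control library 2 read 578.

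The size of the Cre difference itself depended on temperature for 4 tested members, 1.69% against 0.44% of all genes (0.266% in that direction), all 4 with a smaller or opposite difference at 30 °C. Besides Atp5g1 these were Shmt1, Tnc and Stk39. Shmt1, a serine hydroxymethyltransferase of one-carbon metabolism, read 744, 736, 598 and 628 in controls and 911, 1074, 926 and 1090 in Cre-labelled libraries at 22 °C. At 30 °C it read 676, 750.4, 711 and 774 and 434, 643, 518 and 597. The Cre-labelled libraries lay above all controls at 22 °C and below all controls at 30 °C (interaction -0.99 ± 0.17, limma adjusted p = 0.0174, and 0.0511 without control library 3 at 22 °C). The call at 30 °C (-0.42, limma adjusted p = 0.0306) became 0.0545 to 0.112 without control library 2, 3 or 4 or Cre-labelled library 1 or 3. Stk39, a kinase that controls ion transport, differed at 22 °C (159 to 277 against 336 to 619) and not past the threshold at 30 °C (0.10), with an interaction of -1.20 (limma adjusted p = 0.045). For Tnc the interaction was -1.24 (limma adjusted p = 0.029). Of the 16 fits that left out 1 library, 14 lost the interaction call of Stk39 and 9 that of Tnc. The adjusted p rose as high as 0.122 for Stk39 (without control library 1 at 30 °C) and 0.0739 for Tnc (without control library 3 at 22 °C). The count of 4 fell to 1 without control library 3 at 22 °C, and to 2 without any 1 of control library 2 or Cre-labelled library 4 at 22 °C, control libraries 1 and 3 or Cre-labelled libraries 1, 2 and 4 at 30 °C.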

How the data were processed

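The BCL6 sites are the authors' deposited peak list, aligned with Bowtie2 and annotated with HOMER on mm10 per the submitters' processing notes and the file headers; the score of each peak, the fraction for its shape and its distance to the nearest start are the authors' values, and no source used here gives the calling settings. The RNA table holds, per the submitters' processing notes, kallisto estimates normalised by the authors with DESeq2, deposited as 1 signal value per gene and library. These are not whole reads, reads could not be recovered from them, and a change in total RNA would not be seen. The members, the 19 gene lists and the tests were chosen with earlier results of these data known.

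Nearest genes were joined to the RNA table by Entrez ID. Genes with a mean of at least 10 were kept (13176), and log2(value + 1) was fitted with limma 3.58.1 in R 4.3.3, 1 mean per group over 16 libraries, with moderation along a mean trend (prior degrees of freedom 4.83, residual 12) and Benjamini-Hochberg adjustment over all genes kept. The fit was tested on simulated data. Genes named are the nearest genes of the 15 highest peaks, up to 8 genes with 2 or more peaks, up to 8 per direction and comparison by size of difference (groups not overlapping, the higher group averaging 100 or more), up to 4 per gene list, and Bcl6; predicted and clone genes were left out of the ranking by size, the genes of the printed sequences were added, and not every gene the rule allows is described. Results for some members are not reported here. Motifs were searched in RefSeq promoter windows of 300 bases. Sequence of peaks outside these windows was not used here. Same-numbered libraries did not deviate together (r above 0.1 in 1 of 16 pairs), so no pairing was assumed. Other settings tried were the pseudocount, the filter, quantile normalisation, no trend, groups compared alone, a replicate block, each library left out, stricter scores, a distance limit and RefSeq starts. The H3K27ac, ERRa and input samples and BCL6 in Cre-labelled fat were not analysed here.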

Additional observations from a re-analysis of the deposited data

Results flagged for a closer look

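Among 192 groups of 4 libraries examined for the genes with values above, 16 held 1 library set apart from the other 3 by a gap above the 95% critical value of Dixon's ratio for 4 values, and chance alone flags about 1 in 20 groups. The values of these libraries are given here with no explanation. In controls at 30 °C they were Akt1 in library 3 (1265), Bcl2l11 in library 2 (59.9), Cish in library 4 (1806), Stk39 in library 1 (498.2) and Thbs1 in library 2 (578). In controls at 22 °C they were Il6ra in library 3 (256), Socs5 in library 1 (376), Stk39 in library 1 (277) and Tfrc in library 3 (706). In Cre-labelled libraries at 22 °C they were Igfals in library 4 (930.1), Il6ra in library 2 (99.3) and Lrrn4 in library 2 (415). In Cre-labelled libraries at 30 °C they were Gbp7 in library 4 (779.7), Sik1 in library 3 (5189), Socs5 in library 4 (597) and Thrb in library 4 (395).

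The difference by Cre label differed between 30 °C and 22 °C by the limma interaction test for Atp5g1 (log2 -2.23), Shmt1 (-0.99), Tnc (-1.24) and Stk39 (-1.20), with adjusted p of 0.0114, 0.0174, 0.029 and 0.045. Of the 16 fits that left out 1 library, 14 lost the call of Stk39, 9 that of Tnc and 1 that of Shmt1.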

How the results depend on the processing

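Of 141 calls of named genes, 112 held under every alternative run, 29 were lost under at least 1 and 0 changed sign. Leaving out 1 library gave 46 to 69 higher and 4 to 12 lower members by Cre label at 30 °C, 50 to 73 and 0 to 8 at 22 °C, 55 to 70 and 47 to 55 for temperature in controls, 33 to 46 and 31 to 41 in Cre-labelled libraries, and 0 to 1 and 1 to 5 for the interaction. With peaks scoring at least 15 the lower count at 30 °C was 4, the higher count at 22 °C 38, the temperature counts 35 and 28 in controls and 26 and 18 in Cre-labelled libraries, and the lower interaction count 2. With scores of at least 20 the higher and lower counts were 25 and 1 at 30 °C, 23 and 1 at 22 °C, 15 and 19 and 10 and 13 for temperature, and 2 lower for the interaction. With the nearest start within 10 kb they were 27 and 3, 31 and 1, 23 and 27, and 13 and 19. These sets are smaller, so fewer genes were tested. With RefSeq starts, where 200 of the 371 peaks kept the same nearest gene, 5 were lower at 30 °C. The lower count at 22 °C was 1 with quantile normalisation, 1 without a trend, 0 with groups compared alone and 12 without the 2 libraries with the fewest genes above 0, an alternative chosen after seeing the data that also gave 2 higher members for the interaction; without a trend the lower interaction count was 2. The cause was not tested. With the sample number as a replicate block, which the check of deviations did not support as a pairing (1 of 16 libraries correlated best with its own number), the counts by Cre label were 56 and 10 at 30 °C and 58 and 2 at 22 °C, and 7 calls of named genes were lost. The Bcl6 difference held under every alternative. Depth is unknown, so counting error could not be given.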
